A study of Mus musculus with 9 samples.

Results

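The 79 genes described here are protein-coding genes whose RNA was moderately higher in the cochlea of Pou4f3(Δ/Δ) mice than of Pou4f3(+/+) mice. They were chosen by these values themselves: a mean of at least 2 FPKM in Pou4f3(+/+) (FPKM, fragments scaled to exon length and library depth, a level per length) and a Pou4f3(Δ/Δ) mean of at least 1.2 times that mean. Of 1137 genes with values in the Pou4f3(Δ/Δ) libraries, 1013 were protein-coding, 875 of these reached the minimum level, and 96 met both thresholds. Another 17 of the 96, among them Gjb2, Epyc, Dcn, Ttr and Gnpda1, were left out by name. All 79 passed the filter on low values used in the tests.

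Cochlear tissue was taken at postnatal day 3 and sequenced as 9 libraries in 3 groups of 3. The groups follow the sample titles: WT for Pou4f3(+/+), HET for Pou4f3(Δ/+) and HOM for Pou4f3(Δ/Δ). Δ is the mutant allele. The sources used here do not give its extent, the strain, or whether a library is 1 animal or a pool, so the p-values measure only the spread between these libraries. In every sample the genotype characteristic names a different genotype from the title, and each direction below depends on the titles. Pou4f3 RNA was at 25.02, 24.49 and 26.97 FPKM in WT, 24.21, 21.74 and 25.56 in HET, and 5.92, 1.36 and 9.39 in HOM. All HOM libraries were lowest, and those of WT and HET overlapped. Recovered depth, in units of 1e6 fragments, was between 14.31 and 17.41 per library. In bulk tissue, a change in the number of cells of a type and a change in RNA per cell cannot be told apart.

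Pou4f3 is a POU-domain transcription factor that, in the cochlea, is made in hair cells, the mechanosensory cells, and is needed for their maturation and survival. Without it hair cells die. Supporting cells, fibrocytes, roof epithelium and neurons make up most of the cochlea, and their numbers were not measured here. The 79 genes are not a pathway: they include enzymes of sterol and fatty acid metabolism, secreted signals, transcription factors, RNA-binding proteins and little-known genes. FPKM is a share of the library, so each value is relative to the other RNA in it.

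Upstream sequence is shown for 3 of the genes, each the bases before the RefSeq start that lie in no annotated exon (RefSeq, GRCm38.p6), because they come from the sterol, Wnt and centriole genes described below and because together they carry the 3 short motifs that were common in the set. Capitals mark the CCAAT box (CCAAT), the GC box (GGGCGG) and the E-box (CACGTG) on either strand. Sc5d lies at chr9:42264301-42264550 on the minus strand, Wnt9a at chr11:59306680-59306927 on the plus strand and Cep152 at chr2:125625114-125625363 on the minus strand.
Sc5d: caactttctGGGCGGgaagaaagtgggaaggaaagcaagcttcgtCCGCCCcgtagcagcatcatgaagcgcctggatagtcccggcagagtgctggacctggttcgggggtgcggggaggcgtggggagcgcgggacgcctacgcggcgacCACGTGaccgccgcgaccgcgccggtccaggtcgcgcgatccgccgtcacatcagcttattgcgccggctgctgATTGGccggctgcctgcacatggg
Wnt9a: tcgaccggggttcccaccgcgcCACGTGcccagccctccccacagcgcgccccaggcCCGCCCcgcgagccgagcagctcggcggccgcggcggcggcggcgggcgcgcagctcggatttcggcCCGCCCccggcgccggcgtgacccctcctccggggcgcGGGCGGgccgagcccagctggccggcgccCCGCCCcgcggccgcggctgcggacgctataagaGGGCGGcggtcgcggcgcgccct
Cep152: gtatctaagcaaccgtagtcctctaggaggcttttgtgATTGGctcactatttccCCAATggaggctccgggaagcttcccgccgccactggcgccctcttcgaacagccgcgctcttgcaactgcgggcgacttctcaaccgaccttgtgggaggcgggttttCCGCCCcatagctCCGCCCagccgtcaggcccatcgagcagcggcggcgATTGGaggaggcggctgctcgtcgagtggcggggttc

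A window of 250 bases upstream was at hand for 59 of the 79 genes. GGGCGG, the GC box, was in 32 of them (54.2%), against 66.3% of 9051 coding genes expressed at 2 FPKM or more in WT. CCAAT was in 21 (35.6%), against 40.2%. CACGTG, an E-box, was in 6 (10.2%), against 10.01%: Dazap2, Nup54, Nxpe4, Sc5d, Tceal3 and Wnt9a. TCACNCCAC, a core of the sterol regulatory element, was in 0 of the 59, against 1.2%, and ATAATTAAT, a site of class IV POU factors such as Pou4f3, was in 1, Mrpl1, against 0.110%. Both strands were searched, and a base could count towards more than 1 motif. These are matches of letters in a short window and nothing is drawn from them about any factor. The shares of the 79 genes were near or below those of the other expressed genes for the 3 common motifs.

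The HOM levels were between 120.0% and 166.0% of WT, with a median of 125.4%. The median gene was at 7.10 FPKM in WT, 8.21 in HET and 9.79 in HOM. Only 5 genes reached 150%, among them Cep152, Spon2, Slc38a6 and Scd1. The highest level belonged to Dazap2, at 78.65 FPKM in WT, and the lowest to Slc6a13, at 2.32. The median SD within a group was 6.54% of the mean in WT, 9.58% in HET and 6.82% in HOM. In limma's fit 79 of 79 genes were higher in HOM than WT and in all 79 the 3 HOM libraries lay above the 3 WT libraries. Since this contrast chose the genes, these counts are a description, beside 27.7% of all 1109 listed genes called higher and 30.9% with HOM wholly above WT.

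At the edge of the rule, Nt5dc1, G430095P16Rik and Astn2 lay just inside the ratio of 1.2, with HOM means of 4.75, 3.43 and 3.24 FPKM and WT means of 3.96, 2.85 and 2.69. Wnt4, Mios and Cyp27a1 lay just outside, with HOM means of 7.53, 6.02 and 3.36 FPKM and WT means of 6.27, 5.02 and 2.80. On the level, Slc6a13, Cep152 and Amigo2 were the lowest inside, at 2.32, 2.33 and 2.47 FPKM in WT, and Atl1, Xylb and Rnf26 the highest outside, at 1.98, 1.95 and 1.85 FPKM.

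The comparison of HOM with HET asks whether the genes also stood higher than in cochleae that keep a normal allele. The HET libraries took no part in choosing the genes, but the HOM libraries did, so the counts are not independent of the choice. Of the 79 genes, 27 passed limma's threshold (Benjamini-Hochberg adjusted p under 0.05 over 1090 listed genes) and all 27 were higher in HOM, against 8.17% of the listed genes called higher and 36.3% called lower. No gene of the 79 was called lower. At an unadjusted p under 0.05, 39 were higher, against 11.6%. The median difference was 0.20 on the log2(FPKM + 1) scale, beside -0.16 over all listed genes, 76 of 79 differences were above 0, against 32.2%, and in 42 genes the 3 HOM libraries lay above the 3 HET libraries, against 15.7%. The genes listed in HOM are a selection: in each of the 1137 the 3 HOM libraries lay wholly above or below the 3 WT libraries, and most were below. Scaling the listed genes to each other moved their median from -0.16 to -0.06 (median-ratio) and 0.05 (upper-quartile), with 58 and 70 of the 79 genes then called higher, against 19.5% and 30.8% of the listed genes. Because most listed genes were lower in HOM, such scaling raises every HOM value. More calls among genes chosen as raised follow from that, and nothing is drawn from these counts.

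**Figure D1:**
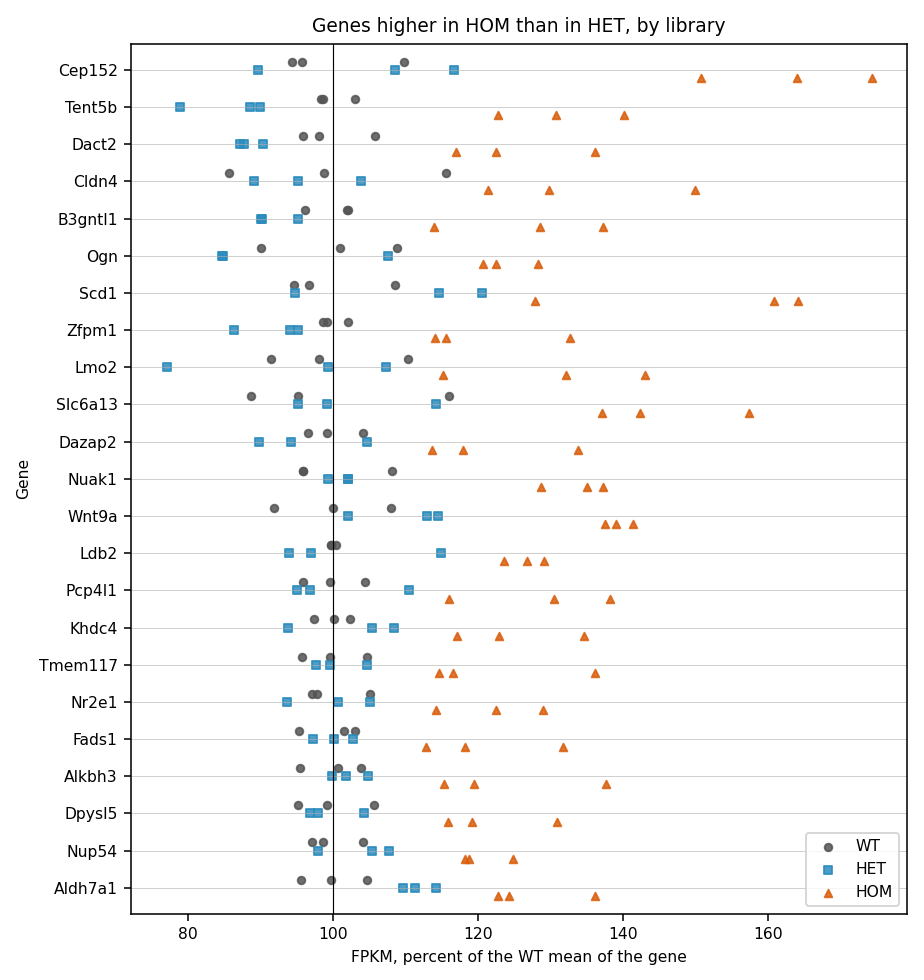
FPKM of 23 of the 27 genes called higher in HOM than in HET, in each of 9 libraries, as a percentage of the WT mean of the gene (horizontal axis); circles are WT, squares HET and triangles HOM libraries. All 3 HOM points lie to the right of all 3 HET points in each row, while WT and HET points lie among each other in most rows.

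Leaving out 1 library often ended the call. Of the 27 genes, 6 kept it in each of the 6 such fits, among them Dact2, B3gntl1, Tent5b, Wnt9a and Zfpm1. Cldn4 lost it only without HET 3 (adjusted p = 0.0576 in limma) and Cep152 only without HET 2 (0.0507). In all, 18 calls were lost without HET 2 and 20 without HET 3, and the numbers called were 9 and 8, each against 1.37% of the listed genes called higher. Without HET 1 it was 27, against 9.63%, and without HOM 1, 2 and 3 it was 16, 20 and 16, against 4.13%, 4.88% and 4.04%.

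**Figure D2:**
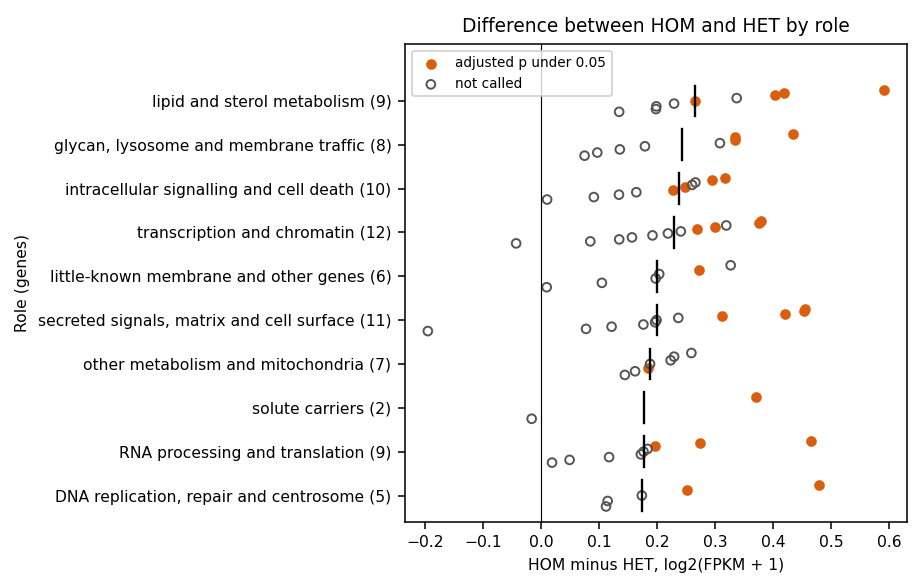
Difference between HOM and HET on the log2(FPKM + 1) scale (horizontal axis) for each of the 79 genes, by role, with the number of genes in brackets; filled points passed limma's adjusted threshold of 0.05, open points did not, and bars are medians. The role medians lie between 0.17 and 0.26, and 3 genes, Spon2, Slc38a6 and Zfp120, lie below 0.

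The counts by role below stand beside 27 of all 79 genes and 8.17% of the listed genes called higher than HET. Differences between roles were not tested, and nothing is read from these counts about any role. Of 9 genes of sterol and fatty acid handling, 4 were called higher and in 7 the HOM libraries lay above the HET libraries. Sc5d, a late enzyme of cholesterol synthesis, was at 7.48 ± 0.516 FPKM in WT, 8.21 ± 0.915 in HET and 9.81 ± 1.19 in HOM (mean ± SD, n = 3), and its difference from HET was not called (adjusted p = 0.122).

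Scd1, the stearoyl-CoA desaturase, was at 9.11, 10.22 and 8.91 FPKM in WT, 8.92, 11.35 and 10.79 in HET, against 15.44, 15.13 and 12.03 in HOM. The HOM libraries were highest, above HET by 0.42 (SE 0.12, adjusted p = 0.0337), a call lost without HOM 1, HOM 2 or any HET library (up to 0.101). Fads1, a desaturase of polyunsaturated fatty acids, was at 44.30, 44.99 and 41.62 FPKM in WT and 49.22, 51.59 and 57.46 in HOM. Its HET libraries, at 44.86, 43.72 and 42.43, sat at the WT level, and HOM exceeded HET by 0.26 (SE 0.07, limma adjusted p = 0.0213; up to 0.0820 without HET 2 or HET 3). Another 4 genes of the group were not called: Pxmp2, a peroxisomal membrane channel, Npc1, which moves cholesterol out of the lysosome, Pla2g4a, a phospholipase that frees arachidonic acid, and Gramd3, a lipid-binding protein at membrane contacts. Their HOM levels were 149.4%, 133.3%, 121.6% and 123.6% of WT.

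Few other sterol genes have HOM values. Of 25 sterol genes expressed in WT and HET, only 4 do, among them Sc5d. One of the 4, Hsd17b7, a sterol 3-ketoreductase, was at 10.9 ± 0.967 FPKM in WT and 7.46 ± 1.56 in HOM and was called lower than HET (-0.70, limma adjusted p = 0.0252). In HET against WT, 11 of the 25 lay above WT, with a median of -0.03, and 0 were called. Of 11 listed genes of fatty acid and lipid transport, 5 lay above WT and 6 below. These lists were chosen with earlier results of the data in view.

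Among secreted signals, matrix and surface genes, 4 of 11 were called higher than HET. Wnt9a, a Wnt ligand (chr11:59306928-59333552), was at 7.22, 8.48 and 7.86 FPKM in WT, 8.02, 8.99 and 8.87 in HET, against 10.92, 10.80 and 11.10 in HOM. The HOM libraries were nearly equal and all above the rest, by 0.31 over HET (SE 0.06, limma adjusted p = 0.00970). Dact2, an intracellular regulator of Wnt and TGF-beta signalling (chr17:14195052-14204304), was at 10.63, 9.85 and 9.63 FPKM in WT, 8.81, 9.08 and 8.75 in HET, and 11.75, 12.29 and 13.66 in HOM. No group overlapped another, with HET lowest and HOM highest, and the difference of 0.46 (SE 0.07, adjusted p = 0.00409) is the one with the smallest p among the 79. Of 48 expressed Wnt pathway genes, 4 have HOM values. Of these, 3 were called higher than HET, Wnt9a, Dact2 and Wnt4, against 8.17% of the listed genes. Wnt9a and Dact2 were chosen by their high HOM values, so nothing is read from this count about the pathway. Wnt4 was at 6.27 ± 0.496 FPKM in WT and 7.53 ± 0.430 in HOM. The fourth, Fzd9, was lower in HOM but not called (adjusted p = 0.0754).

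Ogn, a small leucine-rich proteoglycan of the matrix, was at 43.20, 38.55 and 46.53 FPKM in WT, 46.02, 36.32 and 36.22 in HET, and 52.35, 54.86 and 51.58 in HOM. Cldn4, a tight junction claudin, was at 19.4 ± 2.90 FPKM in WT, 18.6 ± 1.43 in HET and 25.9 ± 2.83 in HOM. Both were higher in HOM than HET, by 0.42 (SE 0.10, adjusted p = 0.0178) and 0.45 (SE 0.09, adjusted p = 0.0121) in limma, and Ogn lost its call without HET 2 or HET 3 (up to 0.0719). Lum, Dcn, Fmod and Epyc, of the same family as Ogn but left out of the set by name, were called higher than HET too. Their differences were 0.43, 0.49, 0.52 and 0.52 (limma adjusted p = 0.0135, 0.0484, 0.0203 and 0.0239). A list of 8 expressed genes of this family does not hold Lum, Dcn, Fmod or Epyc. Of the 8, only Ogn has HOM values. In HET against WT, 2 of the 8 lay above WT, with a median of -0.11. Nothing is read from these calls about the family. Igf1, a growth factor needed for normal cochlear development (chr10:87858265-87937042), was at 31.95, 26.90 and 28.13 FPKM in WT, 31.32, 33.40 and 37.01 in HET, and 42.64, 40.13 and 34.61 in HOM. HET lay between but overlapped both groups and the difference from HET was not called (0.20, SE 0.09, adjusted p = 0.122). Of 14 expressed genes of the IGF axis, only Igf1 has HOM values. The metalloprotease gene Adamts19, the peptidase Dpp4, the adhesion genes Amigo2 and Astn2, the little-known Nxpe4 and the matrix gene Spon2 were not called. Spon2 is described with the HET values.

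Of 12 genes of transcription and chromatin, 4 were called higher than HET. Zfpm1, a zinc finger cofactor of GATA factors, was at 25.79, 26.54 and 25.66 FPKM in WT, 24.48, 22.47 and 24.75 in HET, and 29.67, 30.06 and 34.50 in HOM. As for Dact2, there was no overlap and HET was lowest, and HOM exceeded HET by 0.38 (SE 0.07, limma adjusted p = 0.0106). The LIM-domain partners Ldb2 and Lmo2 and the orphan nuclear receptor Nr2e1 were called too, with differences of 0.30, 0.38 and 0.27. Each lost its call without at least 4 single libraries, at an adjusted p of up to 0.0909, 0.138 and 0.0719. Sox11, a factor of immature neurons and progenitors, was at 27.47, 26.40 and 23.19 FPKM in WT and 32.29, 31.83 and 28.96 in HOM, with HET overlapping both. It was not called, nor were the chromatin proteins Hmgb3 and Lrif1, Tceal3, and the zinc finger genes Zfp991, Zfp677, Zfp120 and Zfp280c.

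Signalling and cell death genes had 4 calls among 10. Nuak1, an AMPK-related kinase, was at 3.14, 3.14 and 3.54 FPKM in WT, 3.34, 3.25 and 3.34 in HET, and 4.42, 4.49 and 4.21 in HOM, a difference from HET of 0.32 (SE 0.06, limma adjusted p = 0.0122; up to 0.0574 without HET 2 or HET 3). Dpysl5, of growth cone signalling, and the small calmodulin-binding protein gene Pcp4l1 were also called, and lost the call without 5 of the 6 libraries in turn. The phosphatase subunit Ppp1r36, Tnfaip8, the EF-hand gene Efcab1, the GTPase-activating protein gene Arhgap8, the ubiquitin ligase Ubox5 and the G protein subunit Gnb5 were not called.

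In RNA processing and translation 3 of 9 genes were called. Tent5b, a poly(A) polymerase family gene, was at 3.08, 2.94 and 2.95 FPKM in WT, 2.65, 2.69 and 2.36 in HET, and 3.91, 3.67 and 4.19 in HOM, again with HET lowest and no overlap. HOM exceeded HET by 0.47 (SE 0.08, limma adjusted p = 0.00721). The splicing regulator Khdc4 and the nuclear pore gene Nup54 were called with 0.27 and 0.20, and without single libraries their adjusted p reached 0.0742 and 0.0955. The abundant RNA-binding gene Hnrnpdl was at 59.02, 58.49 and 59.86 FPKM in WT and 69.18, 66.73 and 77.63 in HOM, and was not called against HET (adjusted p = 0.0825). Mettl25, Trmo, Trmt5, the splicing repressor Ptbp2 and the mitochondrial ribosome gene Mrpl1 were not called.

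Among DNA replication, repair and centrosome genes 2 of 5 were called. Cep152, a scaffold for centriole duplication, was at 2.23, 2.56 and 2.20 FPKM in WT, 2.09, 2.53 and 2.72 in HET, against 4.06, 3.51 and 3.82 in HOM. The HOM libraries were clear of both other groups, which overlapped, and exceeded HET by 0.48 (SE 0.10, limma adjusted p = 0.0122). Alkbh3, which removes alkyl groups from DNA and RNA, rose by 0.25 over HET (SE 0.07, adjusted p = 0.0342; up to 0.106 without single libraries). The nuclear kinase Vrk1, the replication fork gene Tipin and the shieldin subunit Shld2 were not called.

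Glycan, lysosome and membrane traffic genes had 3 calls among 8. B3gntl1, a glycosyltransferase-like gene, was at 16.57, 16.59 and 15.63 FPKM in WT, 14.66, 14.68 and 15.47 in HET, and 20.90, 22.32 and 18.52 in HOM, with HET lowest in all libraries and HOM highest. HOM exceeded HET by 0.43 (SE 0.07, limma adjusted p = 0.00670). Dazap2, the most abundant of the set, rose by 0.34 over HET (SE 0.08, adjusted p = 0.0228; up to 0.0853). Rxylt1, of dystroglycan glycosylation, the ESCRT ATPase Vps4b, the fucosidase Fuca2, the palmitoyltransferase Zdhhc15 and Tmem251 were not called.

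Among other metabolic genes 1 of 7 was called. Aldh7a1, an aldehyde dehydrogenase of lysine breakdown, was at 20.46, 19.49 and 18.69 FPKM in WT, 22.34, 21.76 and 21.44 in HET, and 24.01, 24.29 and 26.62 in HOM. They formed a ladder without overlap, and HOM exceeded HET by 0.18 (SE 0.05, limma adjusted p = 0.0327; up to 0.105 without single libraries). Aldh1a1, a retinaldehyde dehydrogenase, Fech, the last enzyme of heme synthesis, the kinase Pdk1, Txnrd3, Ccdc58 and Nt5dc1 were not called. Fech was also a ladder, at 17.84, 19.71 and 18.59 FPKM in WT, 21.09, 20.26 and 20.89 in HET, and 23.27, 24.60 and 21.34 in HOM. Of the remaining genes, the GABA transporter Slc6a13 (0.37, adjusted p = 0.0184; up to 0.0754) and Tmem117 (0.27, adjusted p = 0.0285; up to 0.0970) were called, and 1810010H24Rik, Armcx5, A130010J15Rik, Tmem268, G430095P16Rik and the amino acid transporter Slc38a6 were not.

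The comparison of HET with WT asks whether the genes were already higher with 1 mutant allele. Of the 79 genes 0 passed limma's threshold, as did 0% of 15391 genes in either direction, and at an unadjusted p under 0.05 there were 8 genes, all higher in HET, against 1.73% of all genes in either direction and 0.884% higher. The WT libraries helped to choose the genes, so these counts are not independent of the choice either. The median difference was 0.08, with 65 of 79 above 0, against 50.4% of all genes. In 15 genes (18.99%) all HET libraries lay above all WT libraries, against 2.82%, and in 4 genes, Dact2, Tent5b, Zfpm1 and B3gntl1, all lay below, against 3.12%. The 8 genes were Spon2, Gnb5, Slc38a6, Mettl25, Zfp120, Fuca2, Npc1 and Tnfaip8, at 180.4%, 123.6%, 156.1%, 121.4%, 126.0%, 118.8%, 120.4% and 124.9% of WT, and the adjusted p of each was 0.9998. The count of 8 moved when 1 library was left out. It was 15 without HET 1 (1833 of all 15151 genes), 2 without HET 2 (200 of 15080) and 2 without HET 3 (167 of 15108). Without WT 1, 2 and 3 it was 4, 2 and 6 (230 of 15158, 184 of 15089 and 316 of 15137).

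HET lay between WT and HOM in 61 of 79 genes (77.2%). It was at or below WT in 14 and at or above HOM in 4. With WT set to 0 and HOM to 1, the median HET position was 0.298 (quartiles 0.0687 and 0.473). Counted by gene, 18 were nearer HOM and 61 nearer WT, the latter including the 14 at or below WT. The median fell to 0.162 under upper-quartile scaling and to 0.192 without HET 2. The 166 coding genes raised by less than 1.2 times had 68.1% between and a median position of 0.326, and the 416 coding genes at or under 1/1.2 of WT had 60.1% between and a median of 0.0619. The 17 genes that met the thresholds but were left out by name had 52.9% between and a median of 0.0414. These are counts and medians with no test, since the WT and HOM means define the scale and chose the genes. The median position was 0.196, 0.405 and 0.288 for HET 1, 2 and 3 taken alone.

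**Figure D3:**
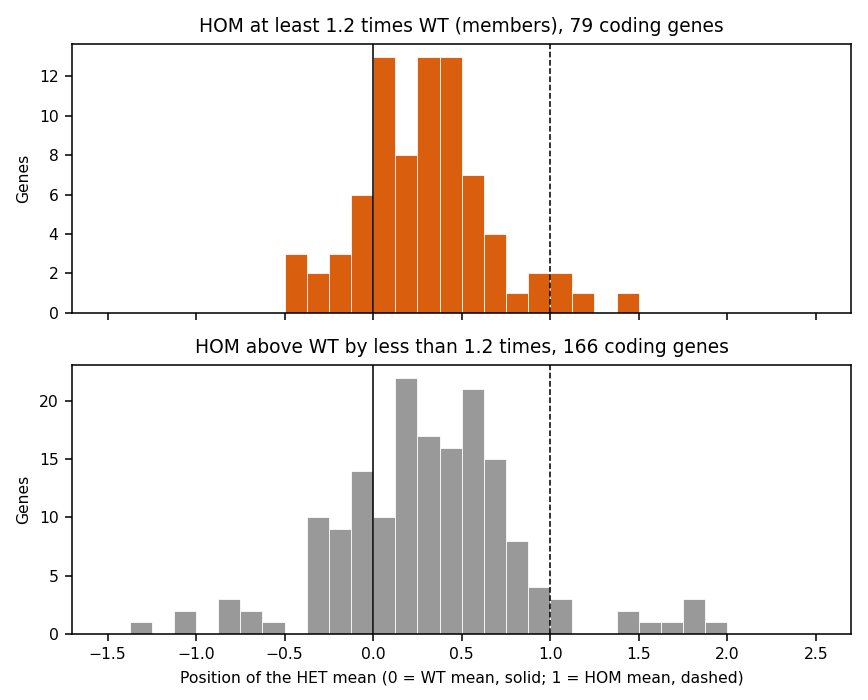
Position of the HET mean between the WT mean (0, solid line) and the HOM mean (1, dashed line), as numbers of genes in bins of 0.125, for the 79 genes and for the 166 coding genes raised by less than 1.2 times. In both panels most genes lie between the lines, with 4 of the 79 genes at or beyond HOM.

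Spon2, a secreted matrix protein (chr5:33198184-33218455), was at 6.84, 6.41 and 6.08 FPKM in WT, 14.78, 9.10 and 11 in HET, and 10.98, 7.97 and 10.86 in HOM. Both mutant groups were above WT in every library and overlapped each other, so the HET position was 1.48. HOM minus HET was -0.20 (SE 0.19, limma adjusted p = 0.397) and HET minus WT 0.74 (SE 0.16, unadjusted p = 0.00327). Gnb5 was at 10.49, 10.23 and 11.23 FPKM in WT, 12.96, 12.93 and 13.59 in HET, and 12.83, 13.71 and 13.25 in HOM. HET and HOM overlapped and both lay above WT, at a position of 0.961. Zfp120 was at a position of 1.23, with HET at 3.86 ± 0.342 and HOM at 3.71 ± 0.0907 FPKM.

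Slc38a6 and Trmt5, which modifies tRNA, stand head to head on chromosome 12 with 68 bases between their annotated ends (GENCODE M21), and both had HET near HOM. Slc38a6 was at 3.46, 2.90 and 2.78 FPKM in WT, 3.56, 5.09 and 5.62 in HET, and 4.05, 5.33 and 4.56 in HOM, a position of 1.07. Trmt5 was at 5.14, 6.26 and 5.38 in WT, 7.65, 6.50 and 5.83 in HET, and 6.47, 6.56 and 7.16 in HOM, a position of 0.938. Within HET, Slc38a6 was lowest and Trmt5 highest in HET 1. The order of the HET libraries thus differed between the pair. Another neighbouring pair, Gramd3 and Aldh7a1, had positions of 0.290 and 0.424.

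**Figure D4:**
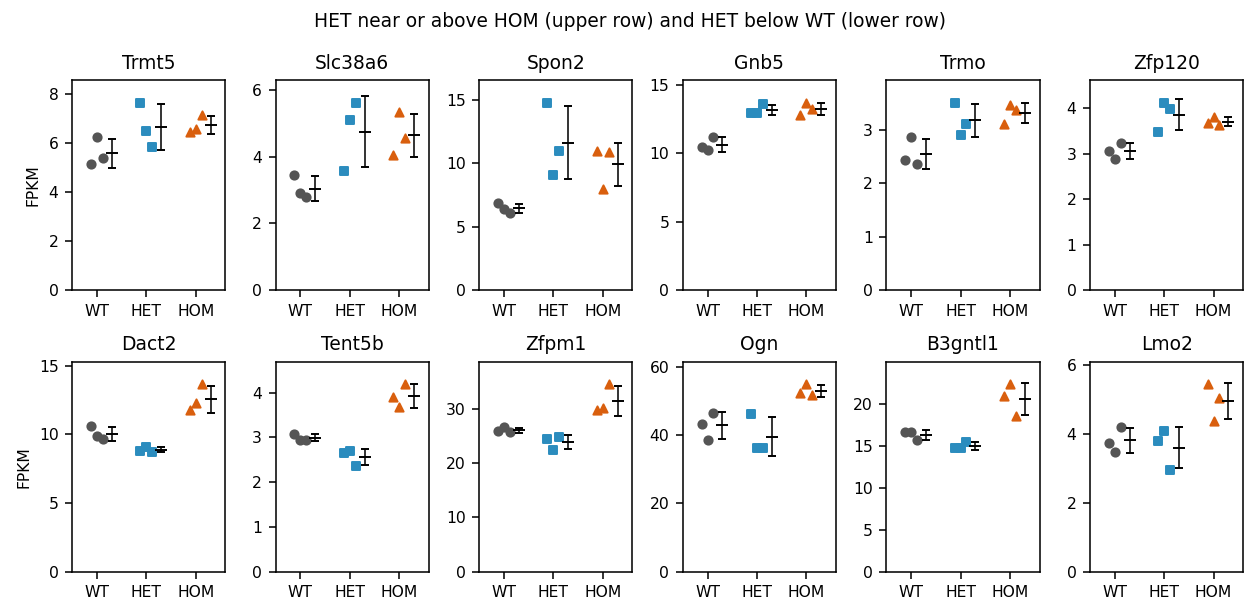
FPKM by library (vertical axis, from 0) in WT (circles), HET (squares) and HOM (triangles) for 6 genes with HET near or above HOM (upper row) and 6 with HET below WT (lower row); bars are mean ± SD (n = 3). In the lower row HOM is above HET in every library, and in the upper row HET and HOM overlap.

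On chromosome 18, which carries Pou4f3, lie 6 of the 79 genes (7.59%), against 4.80% of the 875 listed coding genes and 2.68% of expressed coding genes. They are Npc1, Tnfaip8, Gramd3, Aldh7a1, Adamts19 and Fech. Npc1 starts 30.2 Mb on 1 side of Pou4f3 and the others 7.59 to 22.1 Mb on the other. The 17 genes left out by name, among them Gnpda1 and Ttr, are in neither the count of 6 nor these distances. Neither value therefore shows where all raised genes of the chromosome lie. The HET positions of the 6 genes ran from 0.290 to 0.693, all between WT and HOM. Chromosome 18 was not alone in holding a larger share of the 79 genes than of the listed coding genes. The shares were 6.33% against 2.29% on X, 7.59% against 3.77% on chromosome 12 and 8.86% against 4.69% on chromosome 10. Other chromosomes held a smaller share, such as chromosome 7 with 0% against 4.91%. Differences between chromosomes were not tested.

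The genes were checked against markers of cochlear cell types. Hair cell markers had 22 of 27 members with HOM values, all lower than WT, and none is among the 79. Their summed level was 350.6 to 373.4 FPKM in WT, 346.8 to 360.1 in HET and 80.44 to 153.4 in HOM. Over the markers of the other cell types, few have HOM values, and 3 are in the set, among them Aldh1a1 of otic mesenchyme and Cldn4 of roof epithelium. Of the 20 macrophage markers 1 has HOM values, and the list summed to 98.25 to 106.7 FPKM in WT and 89.03 to 110.3 in HET. Of 40 supporting cell markers, 6 have HOM values and none is in the set; of those 6, 2 were higher and 4 lower than WT, and they summed to 392.0 to 429.6 FPKM in WT and 353.4 to 369.8 in HOM. The lists do not hold Gjb2, Gjb6 and Epyc, genes of cochlear supporting cells, or Cd68 of macrophages, which the choice of genes left out by name. They lay above HET by 0.34, 0.28, 0.52 and 0.33 in HOM (limma adjusted p = 0.0161, 0.0175, 0.0239 and 0.130). The 2 markers of otic mesenchyme with HOM values, 1 of them Aldh1a1, summed to 207.0 to 211.8 FPKM in WT, 188.5 to 206.8 in HET and 225.0 to 254.8 in HOM. Other listed markers were lower: 2 of erythroid cells summed to 67.61 to 81.08 in WT, 35.72 to 77.1 in HET and 25.74 to 36.18 in HOM, 2 of endothelium to 14.59 to 17.28 in WT and 11.78 to 13.15 in HOM, and 2 of stria vascularis to 53.97 to 59.75 and 46.19 to 50.02. The part of these markers in the results was not tested. In HOM 1, 2 and 3, where Pou4f3 was at 5.92, 1.36 and 9.39 FPKM, 19, 22 and 38 of the 79 genes had their highest HOM value and 32, 25 and 24 their lowest, with ties counted in each library. A relation to Pou4f3 was not tested.

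The libraries HET 1 and WT 3 shared a deviation from the rest of their groups. HET 1 was above both other HET libraries in 28 of the 79 genes and below both in 36, and WT 3 was above in 27 and below in 34. Across the 79 genes these deviations correlated at a Pearson r of 0.447, and across 15391 genes at 0.641, as a description over genes of the same libraries. HOM 3 deviated from its group in a similar way, at an r of 0.384 with HET 1 across the 79 genes. Across the listed genes its r was 0.286 with HET 1 (1090 genes) and 0.275 with WT 3 (1109 genes). Without both HET 1 and WT 3, 0 of the 79 genes were called in HET against WT and 17 (21.5%) had an unadjusted p under 0.05, against 15.9% of all genes in this smaller fit, with 57 genes between WT and HOM and a median position of 0.328. Adamts19 and Slc38a6 were among the genes lowest in HET 1, and Spon2 and Ogn among those highest there.

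**Figure D5:**
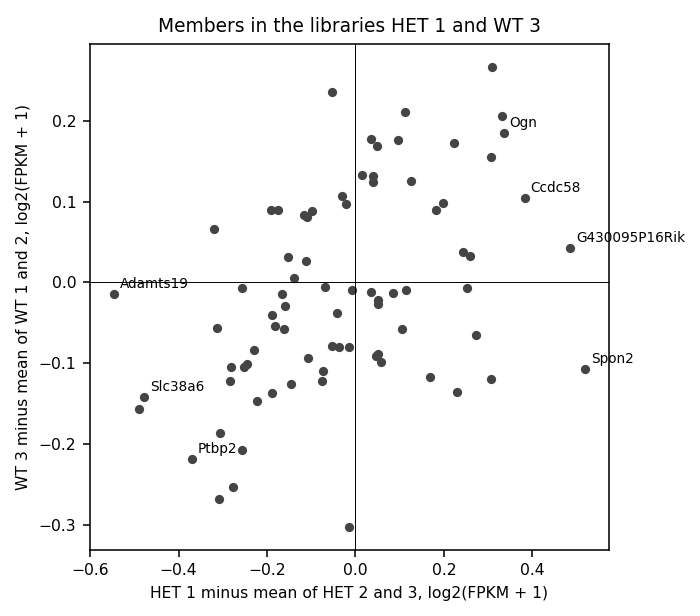
Deviation of HET 1 from the mean of HET 2 and 3 (horizontal axis) against that of WT 3 from the mean of WT 1 and 2 (vertical axis), log2(FPKM + 1), for the 79 genes, with 7 of those at the ends of the horizontal axis named. The Pearson r is 0.447 across the genes, and Spon2 is high in HET 1 but not in WT 3.

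The exons of the 79 genes summed to a median of 4247 bases, against 4852 for the listed coding genes and 4498 for the expressed coding genes, and the WT medians were 7.10, 8.70 and 9.99 FPKM. Recovered fragments over the 3 libraries of a group had a median of 1262 in WT and 1642 in HOM, and the thinnest gene, G430095P16Rik, had 96 and 112.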

How the data were processed

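RNA-seq of mouse cochlea was deposited by the authors as FPKM per library, rounded to 2 decimals. The submitters' processing notes name DESeq2 and the mm8 build, and no source used here gives the aligner, counter or annotation. Per the labels' protocols, libraries were made after poly(A) isolation or removal of rRNA. WT and HET files list 51912 genes and HOM files 1137. GENCODE M21 (GRCm38) was joined by identifier for type, length and position.

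The 79 genes, their roles and the gene lists were chosen with earlier results of these data known. Depth was recovered from the FPKM steps (99.19% to 100% of low values were whole within 0.1 fragments; 30 to 35 values in each HOM library). Groups were compared with limma 3.58.1 in R 4.3.3, with a mean-variance trend, on log2(FPKM + 1); a gene was tested if at least 3 of the 6 libraries reached 1 FPKM. Tests were two-sided, with Benjamini-Hochberg adjustment over all genes tested and a threshold of 0.05. The fit was also run on simulated data with independent noise in each library. Those data lack the deviation that HET 1 and WT 3 shared, and nothing is drawn from that run. Named genes were those with the largest ratio, level, difference or HET position, those at the thresholds and members of the lists; the others were chosen after their values were seen. Differences on the log2(FPKM + 1) scale understate those of low genes. Replicate numbers did not pair the samples. Results of a few genes are not reported here by gene, though counts and medians include them.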

Additional observations from a re-analysis of the deposited data

How the results depend on the processing

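The HOM and HET comparison called 26 genes with a pseudocount of 0.1, 27 without a filter and 26 without a trend. The shares of the listed genes called higher were 7.52%, 7.39% and 7.8%. With all 3 groups in 1 fit it called 36, against 11.6%. Median-ratio scaling gave 58 and upper-quartile scaling 70, against 19.5% and 30.8% of the listed genes, and leaving out 1 library gave 8 to 27, against 1.37% to 9.63%. With a replicate block it called 14, against 2.66%, but same-numbered libraries deviated together at only -0.324, 0.0886 and -0.158, so the numbers pair nothing, and the block called 0 of the 79 in HET against WT. HET against WT called 0 of the 79 in every alternative. The number of genes with HET between ran from 54 to 68. The median position was 0.162 under upper-quartile scaling, which raises the HOM values that set the upper end of the position. It was 0.192 to 0.334 without 1 library, and the cause of these moves was not tested.

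HOM minus HET changed sign in 8 genes that were not called. Without 1 library, Gnb5 ran from -0.0121 to 0.0324 (below 0 without HOM 2 or HET 2), Trmt5 from -0.0604 to 0.11 (HOM 3 or HET 3), Zfp280c from -0.00963 to 0.142 and Nxpe4 from -0.0266 to 0.14 (both HET 1), and G430095P16Rik from -0.118 to 0.172 (HOM 2, HET 2 or HET 3). Slc38a6 ran from -0.175 to 0.0935 (above 0 without HOM 1, HET 2 or HET 3) and was 0.0807 and 0.189 under the median-ratio and upper-quartile scalings. Zfp120 went to 0.05 and 0.154 under the scalings and Spon2 to 0.0315 under upper-quartile scaling. The part of depth in these sign changes was not tested.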
